A study of Homo sapiens with 9 samples.

Results

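The major histocompatibility complex (MHC) was described here through the 49 intervals of primary chromosome 6 that lie wholly between 29.6 and 33.4 Mb in hg19, out of 55527 intervals in all. Position alone chose them. Intervals up to 31.5 Mb were counted as class I (27 intervals), those from there to 32.2 Mb as class III (10) and those beyond as class II (11), and 1 interval crosses the limit between class I and class III. A further 240 intervals lie within the same numbers on alternate MHC haplotype sequences, which are other versions of this region of chromosome 6. They are given apart from the 49, since a gene can be listed on either.

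The MHC is the gene-dense block of the human genome best known for antigen presentation. Its class I part holds the genes for the cell surface molecules that show peptides from inside a cell to cytotoxic T cells, and its class II part those that show peptides taken up from outside to helper T cells, together with genes for peptide processing. Class III lies between them and holds genes of other kinds, among them complement components and inflammatory cytokines. Class I molecules are made by most nucleated cells, and class II molecules chiefly by antigen-presenting cells and by other cells under interferon gamma.

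RNA was sequenced from MDA-MB-231, a human breast cancer cell line, carrying 1 of 3 lentiviral short hairpin constructs: shScr, the control construct, or shCTDP1-#1 or shCTDP1-#2, both directed against CTDP1, a phosphatase that acts on the tail of RNA polymerase II. All groups were infected with lentivirus and selected with puromycin, and each has 3 libraries. The labels do not say whether the 3 came from separate cultures, so p-values measure the spread between libraries, which may be technical. Levels are in TPM, a relative level corrected for length whose total is equal in all libraries, and read depth is unknown. The files pair no gene name with an interval and no hg19 annotation was used, so intervals are named by position, the level of CTDP1 was not analysed here, and neither gene nor exon is given for any interval.

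Most of the 49 intervals on primary chromosome 6 were silent. In 27 the TPM was 0 in all 9 libraries, 12 were above 0 in some library without reaching the level needed for testing (1 TPM in at least 3 libraries), and 10 were tested. Of the 49, 23 were shorter than 300 bases and the median length was 601 bases. Only 2 of the 49 had a mean of 5 TPM or more. Together they held between 29.81 TPM (shCTDP1-#1 replicate 3) and 42.91 TPM (shScr replicate 2). On either side of the region the levels were higher. The 3.8 Mb of chromosome 6 before it held 158 intervals with 918.69 to 2631.75 TPM per library, and the 3.8 Mb after it held 104 intervals with 8143.92 to 9731.51 TPM.

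The haplotype sequences held the bulk of the MHC signal. Their 240 intervals summed to between 18032.55 TPM (shCTDP1-#2 replicate 1) and 20147.28 TPM (shCTDP1-#1 replicate 1), which is 1.80% to 2.01% of a library. Of these intervals 218 lie on the sequence HSCHR6_MHC_DBB and 19 on HSCHR6_MHC_QBL, with 1 each on HSCHR6_MHC_APD, HSCHR6_MHC_COX and HSCHR6_MHC_MANN. HSCHR6_MHC_DBB alone held 16262.45 to 18432.13 TPM per library and HSCHR6_MHC_QBL 1078.06 to 1896.47 TPM. The HSCHR6_MHC_APD and HSCHR6_MHC_MANN intervals were listed at 0 throughout. How reads that match several sequences were divided between them is not given in the sources used here, so the level of an interval with a copy elsewhere is uncertain. The offset between the numbering of these sequences and that of chromosome 6 was not determined, and their classes were set at the same numbers.

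On primary chromosome 6, 3 of the 6 class I intervals tested rose with both hairpins, 1 more rose with shCTDP1-#2 and none passed as lower, while 35.4% and 39.5% of all intervals tested rose with shCTDP1-#1 and shCTDP1-#2. Among the rising intervals, chr6:31162977-31165814 and chr6:30710706-30711369 were below 1 TPM in every shScr library. They reached the level for testing only through hairpin libraries, so their rises are partly set by the filter. No interval outside class I passed as higher against shScr, among 4 tested, and the difference between classes was not tested. The 27 class I intervals summed to 7.73, 4.76 and 5.58 TPM in shScr replicates 1 to 3, to 11.62, 11.44 and 12.48 TPM with shCTDP1-#1, and to 13.31, 11.31 and 10.62 TPM with shCTDP1-#2. Every library of either hairpin was above every control library. The mean was 6.02 ± 1.53 TPM (SD, n = 3) in shScr, 11.8 ± 0.556 (SD, n = 3) with shCTDP1-#1 and 11.7 ± 1.40 (SD, n = 3) with shCTDP1-#2. The ratios to shScr were 1.97 and 1.95, each with p = 0.1 in a two-sided exact permutation test, the smallest p that 3 against 3 libraries allow, and 0.185 after Benjamini-Hochberg adjustment over the 24 tests of sums.

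Called intervals below are those with an adjusted p under 0.05 by limma on log2(TPM + 1), adjusted over the 15011 intervals tested, and changes are on that scale, which understates the change of low intervals. Among all intervals tested, 63.1% were called with shCTDP1-#1 against shScr, 35.4% higher and 27.7% lower. With shCTDP1-#2 against shScr 64.0% were called, 39.5% higher and 24.6% lower. Of the 10 tested intervals of chromosome 6, shCTDP1-#1 raised 3 and lowered 2, and shCTDP1-#2 raised 4 and lowered 1. At 5 of 10 in each comparison, the called share was no higher than that background. Both hairpins raised the same 3 intervals, against 26.4% of all intervals raised by both, and lowered 1, against 16.5%. The median change of the 10 was 0.16 with shCTDP1-#1 and 0.15 with shCTDP1-#2, beside 0.07 and 0.13 over all intervals tested.

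**Figure D1:**
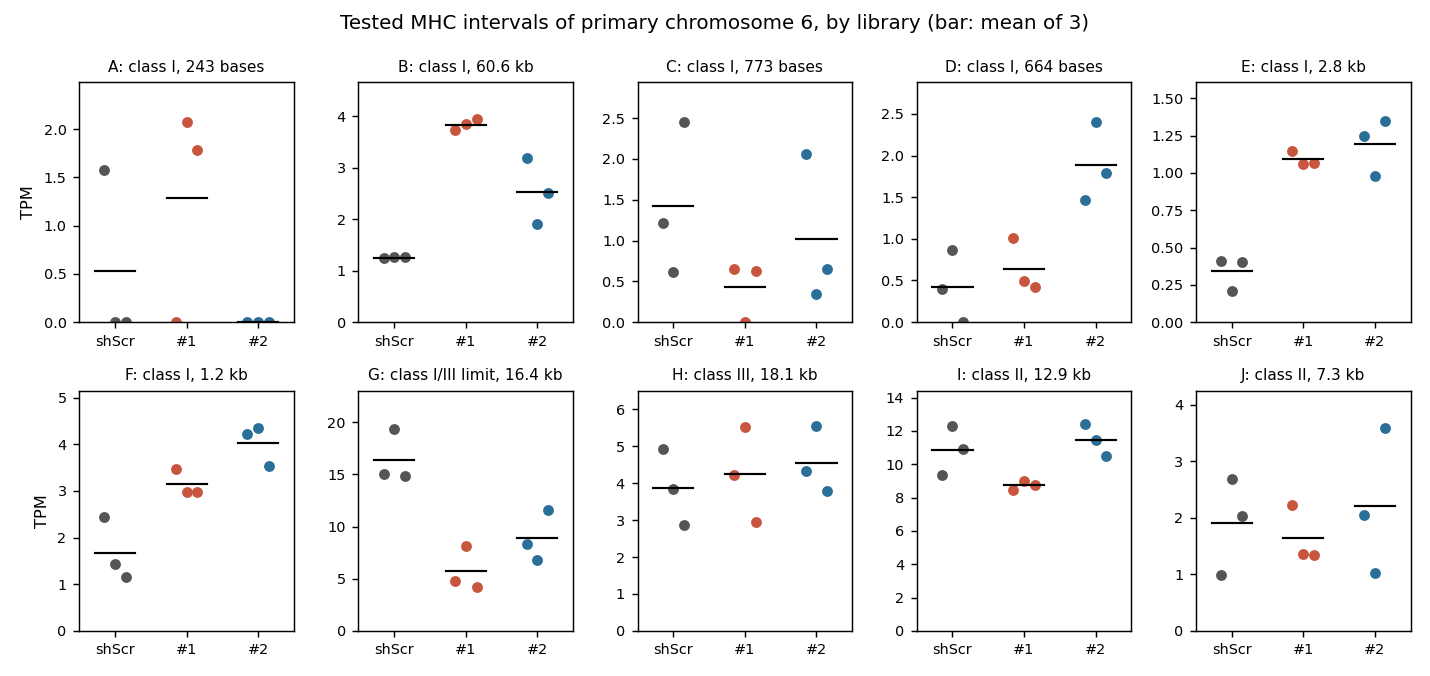
Level in TPM (vertical axes, each from 0 and scaled to its own interval) of the 10 tested MHC intervals of primary chromosome 6 in each library, grouped as shScr, shCTDP1-#1 (#1) and shCTDP1-#2 (#2). Points are libraries and bars are means of 3. Panels run in the order of position. In panels B, E and F every hairpin library is above every shScr library, and in panel G every hairpin library is below them.

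The longest of the rising class I intervals, chr6:29968788-30029417 (60630 bases), rose most with shCTDP1-#1. Its TPM was 1.24, 1.26 and 1.26 in shScr, 3.73, 3.84 and 3.94 with shCTDP1-#1, and 3.19, 1.9 and 2.51 with shCTDP1-#2. The groups did not overlap, and shCTDP1-#1 was above shCTDP1-#2. The log2 change was 1.10 ± 0.15 (SE, limma adjusted p = 7.64e-05) with shCTDP1-#1 and 0.63 ± 0.15 (limma adjusted p = 0.00323) with shCTDP1-#2. Its difference between the hairpins, -0.47 (limma adjusted p = 0.0212), no longer passed without shCTDP1-#2 replicate 2 (-0.33), without shCTDP1-#1 replicate 2 (-0.47) or without shCTDP1-#1 replicate 3 (-0.45).

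The other class I intervals that rose with both hairpins were short and low. The interval chr6:31362066-31363272 (1207 bases) had 2.45, 1.44 and 1.15 TPM in shScr, 3.48, 2.98 and 2.98 with shCTDP1-#1, and 4.22, 4.34 and 3.54 with shCTDP1-#2. Its log2 change was 0.66 ± 0.18 (SE, limma adjusted p = 0.00741) with shCTDP1-#1 and 0.94 ± 0.18 (limma adjusted p = 0.000856) with shCTDP1-#2. At chr6:31162977-31165814 (2838 bases) the level was 0.41, 0.21 and 0.4 TPM in shScr, 1.15, 1.06 and 1.07 with shCTDP1-#1, and 1.25, 0.98 and 1.35 with shCTDP1-#2. It rose by 0.65 ± 0.16 (SE, limma adjusted p = 0.00409) and 0.71 ± 0.16 (limma adjusted p = 0.00232). In both intervals the control libraries were lowest and the hairpins did not differ past the threshold.

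With shCTDP1-#2 alone, chr6:30710706-30711369 (664 bases) also rose. Its TPM was 0.4, 0.87 and 0 in shScr, 1.01, 0.49 and 0.42 with shCTDP1-#1, and 1.47, 2.4 and 1.79 with shCTDP1-#2. The shCTDP1-#1 libraries overlapped the controls, while the shCTDP1-#2 libraries were above all others. The change was 1.05 ± 0.25 (SE, limma adjusted p = 0.00393) against shScr and 0.82 ± 0.25 (limma adjusted p = 0.0196) against shCTDP1-#1. The latter was lost without shCTDP1-#1 replicate 2 (0.76), shCTDP1-#1 replicate 3 (0.73) or shCTDP1-#2 replicate 2 (0.70), and with a pseudocount of 0.1 TPM.

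The remaining class I intervals tested did not pass in any comparison. The 243-base interval chr6:29719742-29719984 was listed at 0 in 6 of 9 libraries and had 1.58 TPM in shScr replicate 1 and 2.07 and 1.78 TPM in shCTDP1-#1 replicates 2 and 3. Without shCTDP1-#1 replicate 1 its rise with shCTDP1-#1 passed the threshold (1.09), and the difference between the hairpins passed without that library (-1.55) or without shScr replicate 1 (-1.03). The interval chr6:30690882-30691654 (773 bases) had 1.21, 0.62 and 2.45 TPM in shScr, 0.65, 0 and 0.63 with shCTDP1-#1, and 2.06, 0.34 and 0.65 with shCTDP1-#2. Its change with shCTDP1-#1 was -0.73 (limma adjusted p = 0.102) and passed without shScr replicate 2 (-0.99). Values this low, with several at 0, leave wide intervals on the change.

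Below the level for testing, chr6:29694378-29716826 (22449 bases) was higher with both hairpins. It had 0.09, 0.33 and 0.29 TPM in shScr, 1.16, 0.82 and 1.43 with shCTDP1-#1, and 0.54, 0.85 and 0.66 with shCTDP1-#2, and every hairpin library was above every control. The interval chr6:30978251-31003179 (24929 bases) had 0.03 TPM in each shScr library, 0.15 to 0.22 with shCTDP1-#1 and 0.07 to 0.1 with shCTDP1-#2. Both were named after their values were seen. The other 10 of these 12 intervals were at 0 in 4 or more libraries, and the highest value among them was 1.94 TPM, in the class II interval chr6:33213852-33214633.

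The interval across the limit of class I and class III, chr6:31497996-31514385 (16390 bases), fell with both hairpins. Its TPM was 15.07, 19.35 and 14.82 in shScr, 4.77, 8.1 and 4.2 with shCTDP1-#1, and 8.31, 6.79 and 11.54 with shCTDP1-#2. Every hairpin library was below every control library, and the hairpins overlapped. The log2 change was -1.41 ± 0.22 (SE, limma adjusted p = 0.000275) with shCTDP1-#1 and -0.84 ± 0.22 (limma adjusted p = 0.00765) with shCTDP1-#2. The difference between the hairpins was 0.58 (limma adjusted p = 0.0534) and passed without shCTDP1-#1 replicate 2 (0.82) or shCTDP1-#2 replicate 2 (0.74). Of the 10 tested, no other passed as lower with both.

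In class III of chromosome 6 the single tested interval was chr6:32121622-32139755 (18134 bases), and 8 of 10 intervals were at 0 in every library. It had 4.92, 3.85 and 2.88 TPM in shScr, 4.23, 5.53 and 2.95 with shCTDP1-#1, and 4.33, 5.55 and 3.79 with shCTDP1-#2. The groups overlapped throughout. Its changes were 0.09 (95% interval -0.38 to 0.56) with shCTDP1-#1 and 0.20 (-0.28 to 0.67) with shCTDP1-#2, and neither passed (limma adjusted p = 0.725 and 0.445).

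Class II of chromosome 6 was low as well. Its 11 intervals summed to 12.9 ± 2.21 TPM (SD, n = 3) in shScr, 11.1 ± 0.875 with shCTDP1-#1 and 14.8 ± 2.06 with shCTDP1-#2. The ratios to shScr were 0.862 and 1.15, with p = 0.3 and 0.4 in the two-sided exact permutation test. Without the highest interval they were 1.17 and 1.65, so the direction with shCTDP1-#1 turned. Most of the sum came from chr6:32485120-32498064 (12945 bases), which had 9.36, 12.27 and 10.92 TPM in shScr, 8.44, 9.01 and 8.76 with shCTDP1-#1, and 12.39, 11.46 and 10.51 with shCTDP1-#2.

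That interval was lower in all 3 shCTDP1-#1 libraries than in any other library. Its change against shScr was -0.28 ± 0.10 (SE, limma adjusted p = 0.0365). The call was lost without shScr replicate 2 (-0.19) or 3 (-0.27), without any 1 of the shCTDP1-#1 libraries (-0.25, -0.30 and -0.28 without replicates 1, 2 and 3), with no filter on low values, and in a fit of those groups alone. With shCTDP1-#2 the change against shScr was 0.08 (limma adjusted p = 0.537), and against shCTDP1-#1 it was 0.35 ± 0.10 (limma adjusted p = 0.0152), a call lost without shCTDP1-#2 replicate 1 (0.30). The other tested class II interval, chr6:32520490-32527799 (7310 bases), had 0.99 to 2.68 TPM in shScr, 1.34 to 2.22 with shCTDP1-#1 and 1.02 to 3.58 with shCTDP1-#2, and was called in no comparison.

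Between the hairpins, 50.2% of all intervals tested were called, 30.2% higher and 20.0% lower with shCTDP1-#2. Of the 10 tested on chromosome 6, 2 were higher with shCTDP1-#2, in class I and class II, and 1 was lower, in class I. None of the 10 was called in opposite directions by the hairpins, against 5.43% of all intervals.

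On the haplotype sequences, where the MHC signal was listed, more class I intervals rose than fell with each hairpin too. A class is a range of positions here, and which intervals hold genes for antigen presentation is not known. Of 48 class I intervals tested there, 26 rose and 12 fell with shCTDP1-#1, and 26 rose and 11 fell with shCTDP1-#2. Some rising intervals were below 1 TPM in every shScr library and reached the level for testing only through hairpin libraries. On HSCHR6_MHC_DBB these include 29846690-29847658, 30028370-30033991, 30192097-30284162, 30474278-30477232 and 30724987-30750718, and with shCTDP1-#2 alone 31492262-31493096. The shares over all intervals were taken under the same filter. Both hairpins raised 23 and lowered 9 of them, beside 26.4% and 16.5% of all intervals tested. The median change was 0.45 with shCTDP1-#1 and 0.43 with shCTDP1-#2. In class III, of 48 tested, 16 rose and 14 fell with shCTDP1-#1, and 18 rose and 15 fell with shCTDP1-#2, with medians of -0.05 and 0.11. In class II, of 31 tested, 9 rose and 11 fell with shCTDP1-#1, and 11 rose and 11 fell with shCTDP1-#2, with medians of -0.09 and 0.06.

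Those counts stand beside a high background. Over all 128 tested haplotype intervals, 51 rose and 38 fell with shCTDP1-#1 (69.5% called, against 63.1% of all intervals), and 56 rose and 37 fell with shCTDP1-#2 (72.7%, against 64.0%). Both hairpins raised 44 of the 128 and lowered 29, beside 26.4% and 16.5% of all intervals. Another 6 moved in opposite directions, beside 5.43% of all intervals. In class I, 54.2% of the tested intervals rose with each hairpin, beside the 35.4% and 39.5% of all intervals. In class III 33.3% and 37.5% rose, and in class II 29.0% and 35.5%. Of all intervals, 27.7% fell with shCTDP1-#1 and 24.6% with shCTDP1-#2. Among the tested intervals were 41 overlapping pairs, whose shared reads cannot be told apart by strand, since the kit does not keep it. With shCTDP1-#1, 14 of these pairs were called in the same direction, 6 in opposite directions and 16 in 1 member only.

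Rescaling the libraries shifted these medians. Scaling by the median of ratios took the median change of all tested intervals from 0.07 and 0.13 (shCTDP1-#1 and shCTDP1-#2) to 0.0004 and -0.0004. The class I median stayed above 0, at 0.38 and 0.29, with 25 higher and 14 lower and with 23 higher and 13 lower. The class III and class II medians with shCTDP1-#2 changed sign, to -0.04 and -0.08, so no direction is given for those classes. Between the hairpins, 56.9% of the called haplotype intervals were higher with shCTDP1-#2 as deposited, 47.1% after upper-quartile scaling and 44.6% after median-of-ratios scaling. Over all intervals the share of calls that were higher with shCTDP1-#2 against shScr moved from 61.6% to 48.9% after median-of-ratios scaling.

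**Figure D2:**
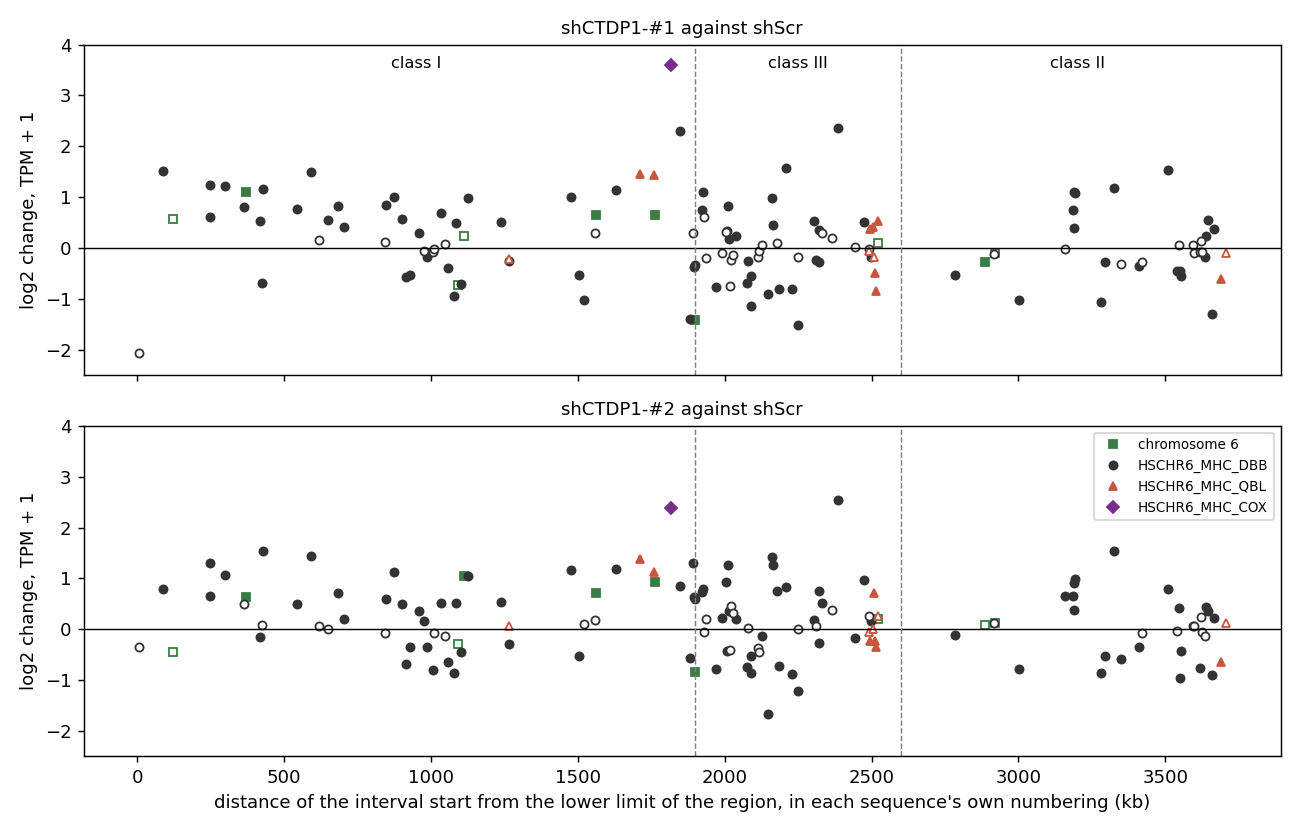
Change on the log2(TPM + 1) scale (vertical axis) of each tested MHC interval against the distance of its start from the lower limit of the region in kb (horizontal axis, in each sequence's own numbering), for shCTDP1-#1 (upper panel) and shCTDP1-#2 (lower panel) against shScr. Filled symbols passed an adjusted p of 0.05, open symbols did not, and dashed lines mark the class limits. Between 200 and 400 kb all 4 tested HSCHR6_MHC_DBB intervals, which include an overlapping pair, rose with shCTDP1-#1, beside 35.4% of all intervals tested. Class I, class III and class II each hold changes of both signs.

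Along HSCHR6_MHC_DBB, calls were counted in windows of 200 kb, and differences between windows were not tested. In the first window 1 of 2 tested intervals rose with shCTDP1-#1 and none fell, with a median change of -0.27. In the following windows, starting 200, 400 and 600 kb from the lower limit, shCTDP1-#1 raised 4 of 4, 4 of 5 and 3 of 4 tested intervals, with median changes of 1.01, 0.78 and 0.47, beside the 35.4% raised among all intervals. The raised intervals 29846690-29847658, 30028370-30033991 and 30192097-30284162 reached the level for testing only through hairpin libraries. The first of them overlaps another raised interval, 29847148-29849870. With shCTDP1-#2, 3 of 4, 3 of 5 and 2 of 4 rose in those windows, with medians of 0.86, 0.51 and 0.13, beside 39.5% of all intervals. In the window at 1000 kb, which holds 9 tested intervals, 3 rose and 3 fell with shCTDP1-#1 and the median was -0.02. Rises were not confined to the class I end. At 1800 kb, with 11 tested, 3 rose and 4 fell with shCTDP1-#1 (median -0.09), and 7 rose and 2 fell with shCTDP1-#2 (median 0.60). At 3000 kb, in class II with 6 tested, 4 rose and 1 fell with shCTDP1-#1 (median 0.56). With shCTDP1-#2, 5 rose and 1 fell there (median 0.65). In the window at 3400 kb, with 9 tested, 1 rose and 4 fell with shCTDP1-#1 and 2 rose and 3 fell with shCTDP1-#2. Over all intervals tested, 35.4% rose and 27.7% fell with shCTDP1-#1, and 39.5% rose and 24.6% fell with shCTDP1-#2.

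The summed class I level on the haplotype sequences was 6667.99, 6831.63 and 6715.89 TPM in shScr, 7776.59, 7775.41 and 7740.62 with shCTDP1-#1, and 7655.73, 7618.35 and 7398.62 with shCTDP1-#2. Every hairpin library was above every control. The ratios to shScr were 1.15 and 1.12, each with p = 0.1 (exact permutation test, the smallest possible, adjusted 0.185). Without the single most abundant interval, which fell, the ratios were 1.44 and 1.38. After median-of-ratios scaling they were 1.09 and 1.01, so the rise of the sum with shCTDP1-#2 depends on the scaling.

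The most abundant class I interval was HSCHR6_MHC_DBB:30678239-30683464 (5226 bases), and it fell with both hairpins. It had 2101.44, 2144.83 and 2115.09 TPM in shScr, 1082.37, 1086.48 and 1110.71 with shCTDP1-#1, and 1208.47, 1128.04 and 1162.28 with shCTDP1-#2. The log2 change was -0.96 ± 0.03 (SE, limma adjusted p = 3.44e-09) and -0.86 ± 0.03 (limma adjusted p = 8.93e-09). Every hairpin library was below every control library, and the hairpins differed by 0.09 (limma adjusted p = 0.0281), a call lost after either rescaling and without shCTDP1-#1 replicate 1 (0.09) or 2 (0.09) or shCTDP1-#2 replicate 1 (0.07) or 3 (0.10).

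The next most abundant class I intervals both rose. HSCHR6_MHC_DBB:29899000-29903640 (4641 bases) had 717.84, 798.38 and 770.72 TPM in shScr, 1773.34, 1764.43 and 1749.7 with shCTDP1-#1, and 1592.36, 1656.4 and 1523.95 with shCTDP1-#2. Its change was 1.21 ± 0.04 (SE, limma adjusted p = 6.15e-09) with shCTDP1-#1 and 1.06 ± 0.04 (limma adjusted p = 1.86e-08) with shCTDP1-#2. HSCHR6_MHC_QBL:31311768-31315097 (3330 bases) had 406.43, 421.6 and 412.38 TPM in shScr, 1135.77, 1133.17 and 1113.53 with shCTDP1-#1, and 1080.89, 1120.5 and 1043.17 with shCTDP1-#2. It rose by 1.45 ± 0.03 (SE, limma adjusted p = 4.78e-10) and 1.38 ± 0.03 (limma adjusted p = 7.36e-10). In both intervals every control library was below every hairpin library. The first was lower with shCTDP1-#2 than with shCTDP1-#1 by 0.15 (limma adjusted p = 0.0146, lost without shCTDP1-#2 replicate 3, at -0.12).

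**Figure D3:**
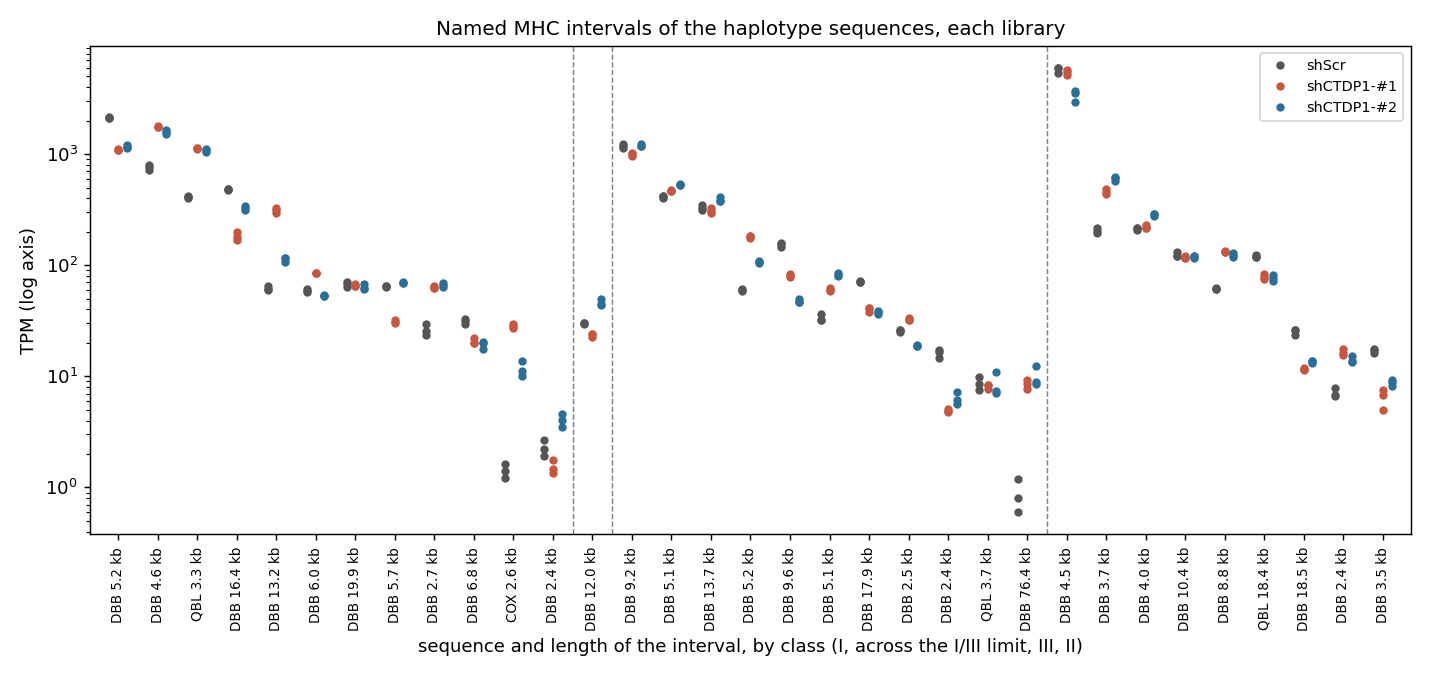
Level in TPM (vertical axis, log scale) of the 33 named MHC intervals of the haplotype sequences in each library, ordered by class and then by mean level, with class limits as dashed lines. Points are single libraries, and labels give the sequence (HSCHR6_MHC_DBB, QBL or COX) and length in kb. The most abundant class I interval is lower with both hairpins and the next both higher, and the most abundant class II interval is lower with shCTDP1-#2 alone.

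The largest class I rise with both hairpins was on HSCHR6_MHC_COX. HSCHR6_MHC_COX:31418402-31421036 (2635 bases) had 1.63, 1.21 and 1.4 TPM in shScr, 29.33, 28.3 and 27.4 with shCTDP1-#1, and 13.84, 11.13 and 10.15 with shCTDP1-#2. The change was 3.61 ± 0.12 (SE, limma adjusted p = 3.42e-09) with shCTDP1-#1 and 2.39 ± 0.12 (limma adjusted p = 5.59e-08) with shCTDP1-#2. The hairpins differed by -1.22 (limma adjusted p = 1.22e-05), and the libraries of the 3 groups did not overlap.

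A similar order was seen at HSCHR6_MHC_DBB:31447882-31461098 (13217 bases), with 61.37, 64.52 and 60.24 TPM in shScr, 324.86, 297.49 and 311.43 with shCTDP1-#1, and 116.78, 105.92 and 115.01 with shCTDP1-#2. It rose by 2.31 ± 0.05 (SE, limma adjusted p = 3.83e-10) with shCTDP1-#1 and by 0.85 ± 0.05 (limma adjusted p = 2.06e-07) with shCTDP1-#2, a difference of -1.46 (limma adjusted p = 1.57e-08). HSCHR6_MHC_DBB:29847148-29849870 (2723 bases), rose with both hairpins as well. It had 25.61, 29.54 and 23.77 TPM in shScr, 65.01, 61.98 and 62.75 with shCTDP1-#1, and 66.01, 69.29 and 63.78 with shCTDP1-#2, and the difference between the hairpins was 0.07 (95% interval -0.09 to 0.23) and did not pass.

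Class I intervals that fell with both hairpins lay at several places. HSCHR6_MHC_DBB:31480180-31496536 (16357 bases) had 488.71, 478.91 and 482.77 TPM in shScr, 181.07, 170.31 and 200.11 with shCTDP1-#1, and 337.67, 316.87 and 330.03 with shCTDP1-#2. The change was -1.39 ± 0.05 (SE, limma adjusted p = 9.76e-09) and -0.56 ± 0.05 (limma adjusted p = 6.40e-06), and the fall was deeper with shCTDP1-#1 by 0.84 (limma adjusted p = 7.82e-07). Like the 16390-base interval across the class limit on chromosome 6, this one had its lowest mean with shCTDP1-#1 and its highest in shScr. On chromosome 6, though, the hairpins overlapped and their difference did not pass (limma adjusted p = 0.0534). Whether these intervals are copies of each other was not determined. HSCHR6_MHC_DBB:30514898-30521735 (6838 bases) went from 29.44, 31.67 and 32.81 TPM in shScr to 19.91 to 22.34 with shCTDP1-#1 and 17.49 to 20.49 with shCTDP1-#2.

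Other class I intervals were called with only 1 hairpin or in no comparison. HSCHR6_MHC_DBB:31120050-31125719 (5670 bases) had 63.45 to 64.98 TPM in shScr, 29.93 to 32.38 with shCTDP1-#1 and 68.67 to 70.4 with shCTDP1-#2. It fell by 1.03 with shCTDP1-#1 (limma adjusted p = 2.35e-08) and the hairpins differed by 1.14 (limma adjusted p = 3.42e-08). With shCTDP1-#2 the change of 0.10 missed the threshold (limma adjusted p = 0.0627), though it passed without shCTDP1-#1 replicate 3. HSCHR6_MHC_DBB:30611130-30631079 (19950 bases) stayed between 61.1 and 71.06 TPM in all 9 libraries, and its changes were -0.02 (95% interval -0.15 to 0.10) and -0.08 (-0.21 to 0.04). The change with shCTDP1-#2 passed after upper-quartile scaling (-0.14) and after median-of-ratios scaling (-0.23).

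Class III of the haplotype sequences summed to 4466 ± 102 TPM (SD, n = 3) in shScr, 4211 ± 26.8 with shCTDP1-#1 and 4634 ± 106 with shCTDP1-#2. The libraries of shCTDP1-#1 were all below the controls (ratio 0.943, p = 0.1, exact permutation test, the smallest possible). Those of shCTDP1-#2 overlapped them (1.04, exact permutation p = 0.2), and that ratio was 0.935 after median-of-ratios scaling. The most abundant class III interval, HSCHR6_MHC_DBB:31680530-31689717 (9188 bases), had 1130.38, 1237.07 and 1194.95 TPM in shScr, 1021.66, 1011.46 and 960.91 with shCTDP1-#1, and 1192.33, 1237.56 and 1174.71 with shCTDP1-#2. It fell by 0.25 with shCTDP1-#1 (limma adjusted p = 0.000301), and with shCTDP1-#2 its change was 0.02 (limma adjusted p = 0.720), or -0.13 and past the threshold after median-of-ratios scaling.

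The intervals of the next highest mean in class III, and a neighbour that overlaps the first of them, were higher with shCTDP1-#2. HSCHR6_MHC_DBB:31615195-31620303 (5109 bases) had 419.46, 415.49 and 405.31 TPM in shScr, 478.11, 468.26 and 463.37 with shCTDP1-#1, and 538.36, 527.2 and 524.09 with shCTDP1-#2. It rose by 0.18 (limma adjusted p = 0.000267) and 0.36 (limma adjusted p = 2.18e-06), and the 3 groups did not overlap. Beside it, the overlapping HSCHR6_MHC_DBB:31611188-31616243 (5056 bases) rose more, from 31.92 to 36.46 TPM in shScr to 58.14 to 62.65 and 80.02 to 85.9, with changes of 0.83 and 1.27. HSCHR6_MHC_DBB:31588979-31602664 (13686 bases) had 316.22 to 350.78 TPM in shScr, 297.58 to 326 with shCTDP1-#1 and 376.28 to 408.1 with shCTDP1-#2. Its rise of 0.23 with shCTDP1-#2 (limma adjusted p = 0.00273) was lost after median-of-ratios scaling (0.08).

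Larger class III changes were found at lower levels. HSCHR6_MHC_DBB:31984751-32061164 (76414 bases) was close to silent in shScr, at 0.6, 1.18 and 0.8 TPM, and had 8.56, 7.61 and 9.21 TPM with shCTDP1-#1 and 12.44, 8.57 and 8.84 with shCTDP1-#2. It rose by 2.35 ± 0.16 (SE, limma adjusted p = 6.11e-07) and 2.55 ± 0.16 (limma adjusted p = 3.45e-07). HSCHR6_MHC_DBB:31807625-31812872 (5248 bases) had 59.2, 60.67 and 60.11 TPM in shScr and rose to 177.07, 181.97 and 183.54 with shCTDP1-#1 and to 108.88, 107.94 and 104.93 with shCTDP1-#2, by 1.58 and 0.83.

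Class III also held falls with both hairpins. HSCHR6_MHC_DBB:31747358-31756947 (9590 bases) had 145.92, 159.19 and 155.3 TPM in shScr, 80.28, 83.8 and 78.88 with shCTDP1-#1, and 47, 49.83 and 46.48 with shCTDP1-#2. Its change was -0.91 ± 0.05 (SE, limma adjusted p = 8.61e-08) and -1.66 ± 0.05 (limma adjusted p = 2.21e-09). HSCHR6_MHC_DBB:31849569-31851954 (2386 bases) fell by 1.53 with shCTDP1-#1 and by 1.21 with shCTDP1-#2, from 14.57 to 17.23 TPM to 4.78 to 5.05 and 5.67 to 7.29. HSCHR6_MHC_DBB:31829721-31847649 (17929 bases) fell by 0.80 and by 0.89, from 69.9 to 71.52 TPM to 37.87 to 41.57 and 36.19 to 39.08. Called in no comparison was HSCHR6_MHC_QBL:32089983-32093681 (3699 bases), at 7.6 to 9.8 TPM in shScr, 7.69 to 8.37 with shCTDP1-#1 and 7.03 to 10.95 with shCTDP1-#2.

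Class II of the haplotype sequences was dominated by 1 interval. HSCHR6_MHC_DBB:33217712-33222212 (4501 bases) had 5424.79, 5940.34 and 5918.98 TPM in shScr, 5696.43, 5475.87 and 5109.53 with shCTDP1-#1, and 2955, 3730.17 and 3582.09 with shCTDP1-#2. The shCTDP1-#1 libraries overlapped the controls, and those of shCTDP1-#2 were below all others. The change was -0.09 (95% interval -0.26 to 0.09) with shCTDP1-#1 and -0.76 ± 0.08 (SE, limma adjusted p = 1.58e-05) with shCTDP1-#2, and the hairpins differed by -0.67 (limma adjusted p = 6.41e-05).

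The class II sum followed that interval. It was 7556.06, 8106.97 and 8086.05 TPM in shScr, 8129.88, 7922.84 and 7552.06 with shCTDP1-#1, and 5664.56, 6413.56 and 6269.32 with shCTDP1-#2. The ratios to shScr were 0.994 (p = 0.9, exact permutation test) and 0.773 (p = 0.1, the smallest possible). Without that interval the ratios were 1.13 and 1.25, so the direction with shCTDP1-#2 turned.

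**Figure D4:**
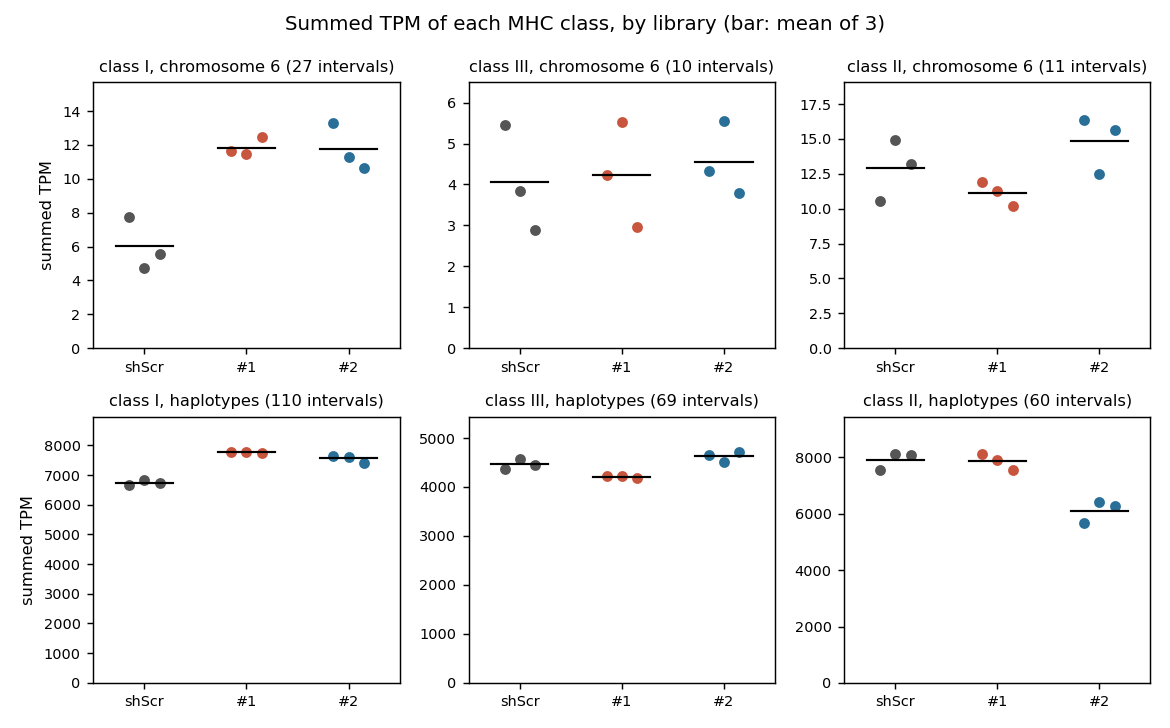
Summed TPM (vertical axes, from 0) of the intervals of each MHC class on primary chromosome 6 (upper row) and on the haplotype sequences (lower row, labelled haplotypes) in each library. Points are libraries and bars are means of 3, with #1 and #2 for the hairpins. Class I is above shScr in every hairpin library in both rows, at very different levels, and class II of the haplotype sequences is lowest with shCTDP1-#2.

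The intervals of the next highest mean in class II were higher with shCTDP1-#2. HSCHR6_MHC_DBB:32923568-32927227 (3660 bases) had 216.22, 202.44 and 192.98 TPM in shScr, 439.76, 457.49 and 486.5 with shCTDP1-#1, and 603.92, 569.37 and 620.08 with shCTDP1-#2. It rose by 1.17 ± 0.05 (SE, limma adjusted p = 3.05e-08) and 1.55 ± 0.05 (limma adjusted p = 6.64e-09), and the 3 groups did not overlap. HSCHR6_MHC_DBB:33146132-33150126 (3995 bases) had 209.11 to 216.42 TPM in shScr, 215.79 to 231.52 with shCTDP1-#1 and 277.75 to 289.5 with shCTDP1-#2. It rose by 0.42 with shCTDP1-#2 (limma adjusted p = 3.66e-06), and its change with shCTDP1-#1 was 0.06 (limma adjusted p = 0.204).

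A pair of overlapping class II intervals rose together with both hairpins. HSCHR6_MHC_DBB:32790967-32799736 (8770 bases) had 61.53, 62.78 and 61.32 TPM in shScr, 132.1, 131.41 and 135.12 with shCTDP1-#1, and 122.5, 129.14 and 118.57 with shCTDP1-#2, and rose by 1.09 and 0.98. HSCHR6_MHC_DBB:32789844-32792253 (2410 bases) had 6.66 to 7.9 TPM in shScr, 15.65 to 17.68 with shCTDP1-#1 and 13.47 to 15.32 with shCTDP1-#2, and rose by 1.11 and 0.90. Reads in their shared stretch cannot be assigned to either by strand.

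Of the 31 class II intervals tested on the haplotype sequences, 9 fell with both hairpins, beside 16.5% of all intervals tested. The 3 of these 9 named by the rule follow. HSCHR6_MHC_DBB:32880346-32898843 (18498 bases) fell by 1.06 and by 0.85, from 23.58 to 26.26 TPM in shScr to 11.45 to 11.84 and 13.15 to 13.84. HSCHR6_MHC_DBB:33260109-33263646 (3538 bases) fell by 1.30 and by 0.89, from 16.29 to 17.78 TPM to 4.94 to 7.6 and 8.21 to 9.18. HSCHR6_MHC_QBL:33288143-33306509 (18367 bases) fell by 0.60 and by 0.65, from 118.75 to 123.73 TPM to 74.73 to 83.78 and 71.94 to 81.2. In each of these the control libraries were above all hairpin libraries. The most abundant class II interval called in no comparison was HSCHR6_MHC_DBB:33224810-33235233 (10424 bases), at 120.76 to 131.1 TPM in shScr and 116.14 to 121.73 TPM over the 6 hairpin libraries, and it passed as lower with shCTDP1-#2 after upper-quartile (-0.11) and median-of-ratios scaling (-0.20) and with shCTDP1-#1 after the latter (-0.15).

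Opposite calls by the hairpins were made for 6 of the 128 haplotype intervals, beside 5.43% of all intervals, and those at the junction of class I and class III were close neighbours. HSCHR6_MHC_DBB:31496824-31508774 (11951 bases), which crosses that limit, had 30.46, 29.49 and 30.18 TPM in shScr, 22.44, 23.92 and 23.96 with shCTDP1-#1, and 49.99, 44.05 and 44.44 with shCTDP1-#2. Its change was -0.35 ± 0.06 (SE, limma adjusted p = 0.000579) with shCTDP1-#1 and 0.60 ± 0.06 (limma adjusted p = 1.09e-05) with shCTDP1-#2. The adjacent HSCHR6_MHC_DBB:31494420-31496802 (2383 bases) had 2.68, 1.93 and 2.21 TPM in shScr, 1.34, 1.75 and 1.48 with shCTDP1-#1, and 4.06, 3.47 and 4.61 with shCTDP1-#2. Most of it lies inside HSCHR6_MHC_DBB:31480180-31496536, which held 170.31 to 488.71 TPM and fell with both hairpins. Reads in their shared stretch cannot be assigned by strand, which leaves the level of the 2383-base interval uncertain. Its fall of 0.37 with shCTDP1-#1 (limma adjusted p = 0.0431) was lost without shScr replicate 1 (-0.28) or 3 (-0.38), shCTDP1-#1 replicate 1 (-0.32) or 3 (-0.36), or shCTDP1-#2 replicate 1, with the unfiltered table and in a fit of those groups alone.

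Of the other 4 intervals with opposite calls, 3 were higher with shCTDP1-#1 and lower with shCTDP1-#2. HSCHR6_MHC_DBB:30017009-30023013 (6005 bases) had 57.27, 58.81 and 61.24 TPM in shScr, 85.9, 85.14 and 85.27 with shCTDP1-#1, and 54.49, 52.47 and 53.17 with shCTDP1-#2, changes of 0.52 (limma adjusted p = 1.56e-06) and -0.14 (limma adjusted p = 0.0106). HSCHR6_MHC_DBB:31608257-31610731 (2475 bases) had 25.18, 25.93 and 25.94 TPM in shScr, 33.24, 31.93 and 32.46 with shCTDP1-#1, and 19.13, 18.66 and 18.74 with shCTDP1-#2, changes of 0.33 and -0.43. In both, the 3 groups did not overlap.

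Between the hairpins, 65 of the 128 haplotype intervals were called (50.8%, against 50.2% of all intervals), 37 higher and 28 lower with shCTDP1-#2. In class I 9 of 48 tested were higher and 13 lower, in class III 17 and 9 of 48, and in class II 10 and 6 of 31. Over all intervals tested, 30.2% were higher and 20.0% lower. Of the 128, 20 were called in none of the 3 comparisons, and the matching share over all intervals was not computed.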

How the data were processed

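Total RNA of MDA-MB-231 cells labelled shScr, shCTDP1-#1 or shCTDP1-#2 (3 libraries each, 9 in all) was made into libraries with the TruSeq RNA Library Prep Kit v2, per the labels' protocols. STAR, RSEM and hg19 are named in the submitters' processing notes, while versions, annotation and order of steps are not given in the sources used here. Per library, the authors deposited a table of 57773 intervals whose values sum to the same total, read here as TPM. Of these, 2246 rows shared an interval with another row (0.355% to 0.391% of TPM) and were left out, which left 55527. Depth is unknown, and no interval or floor on a level was computed.

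The 15011 intervals that reached 1 TPM in 3 or more libraries entered limma (version 3.58.1, R 4.3.3, with a mean-variance trend and robust moderation through statmod 1.5.0) as log2(TPM + 1), in 1 fit of 3 groups with 6 residual degrees of freedom. P-values were adjusted by Benjamini-Hochberg over all 15011, with a threshold of 0.05. The fit was tested on simulated data. Sums were compared by exact permutation. Pearson correlations between the deviations of same-numbered libraries from their group means were -0.007 to 0.053. Those of differently numbered libraries were -0.046 to 0.024, so the same-numbered ones lay somewhat higher. As all were near 0, numbers were not taken as pairs, and a fit with the replicate number as a block is given below.

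Members and lists were chosen with earlier results of these data known. Named were, per class, the 3 highest by mean, up to 3 per direction called with both hairpins at a mean of 5 TPM or more, up to 2 per direction called oppositely or between hairpins, and the highest called in none. Applying that rule to the haplotype sequences, and naming all 10 tested members of chromosome 6, were chosen after values were seen. Lists of named genes were not used here, as no hg19 names were at hand. Alternatives were other pseudocounts, filters, scalings and fits, class limits moved by 100 kb, and each library left out.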

Additional observations from a re-analysis of the deposited data

Results flagged for a closer look

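Groups of 3 libraries were too small for a search for single outlying libraries. Of the 43 named intervals, 26 differed between the hairpins in their change against shScr, by the limma contrast of shCTDP1-#2 against shCTDP1-#1 (adjusted p under 0.05). The naming rule itself took some intervals for that difference, so the count is partly set by the choice, and 50.2% of all tested intervals were called in the same contrast. Values are differences on the log2(TPM + 1) scale, positive where shCTDP1-#2 was higher. No explanation was tested.

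On chromosome 6 the differences were -0.469 at chr6:29968788-30029417, 0.8206 at chr6:30710706-30711369 and 0.3527 at chr6:32485120-32498064.

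In class I of the haplotype sequences the larger negative differences were -1.2175 at HSCHR6_MHC_COX:31418402-31421036, -1.4595 at HSCHR6_MHC_DBB:31447882-31461098 and -0.6688 at HSCHR6_MHC_DBB:30017009-30023013. A smaller one was -0.1485 at HSCHR6_MHC_DBB:29899000-29903640. Positive differences were 0.0928 at HSCHR6_MHC_DBB:30678239-30683464, 1.1374 at HSCHR6_MHC_DBB:31120050-31125719, 0.8354 at HSCHR6_MHC_DBB:31480180-31496536, 0.997 at HSCHR6_MHC_DBB:31494420-31496802 and, across the class limit, 0.9466 at HSCHR6_MHC_DBB:31496824-31508774.

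In class III they were 0.3198 at HSCHR6_MHC_DBB:31588979-31602664, -0.7573 at HSCHR6_MHC_DBB:31608257-31610731, 0.4422 at HSCHR6_MHC_DBB:31611188-31616243 and 0.173 at HSCHR6_MHC_DBB:31615195-31620303. Further along they were 0.2677 at HSCHR6_MHC_DBB:31680530-31689717, -0.7496 at HSCHR6_MHC_DBB:31747358-31756947, -0.7485 at HSCHR6_MHC_DBB:31807625-31812872 and 0.3118 at HSCHR6_MHC_DBB:31849569-31851954.

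In class II they were -0.1067 at HSCHR6_MHC_DBB:32790967-32799736, 0.2055 at HSCHR6_MHC_DBB:32880346-32898843, 0.3737 at HSCHR6_MHC_DBB:32923568-32927227, 0.362 at HSCHR6_MHC_DBB:33146132-33150126, -0.6709 at HSCHR6_MHC_DBB:33217712-33222212 and 0.407 at HSCHR6_MHC_DBB:33260109-33263646.

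Between the hairpins, leaving out 1 library ended the call for HSCHR6_MHC_DBB:31849569-31851954, HSCHR6_MHC_DBB:32790967-32799736, HSCHR6_MHC_DBB:32880346-32898843 and HSCHR6_MHC_DBB:33260109-33263646. Without shCTDP1-#2 replicate 2 the first was 0.2243, and it was 0.328, 0.3123 and 0.2951 without shCTDP1-#1 replicates 1, 2 and 3. Every library except shCTDP1-#2 replicate 2 ended the call for the second, at -0.0785 to -0.1146. The third was 0.2027 and 0.1957 without shCTDP1-#1 replicates 1 and 2, and 0.1996 and 0.1912 without shCTDP1-#2 replicates 1 and 2. The fourth was 0.3929 and 0.3779 without shCTDP1-#2 replicates 1 and 2.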

How the results depend on the processing

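Of 86 changes of named intervals against shScr, 75 kept their call under every alternative other than the test against a fold of 1.5. With each library left out, 81 of 86 did. With the comparisons between hairpins included, 104 of 129 and 113 of 129 did. A call was kept if the change stayed on its side of the threshold and, where called, in its direction. An alternative that left an interval untested was passed over and so could not end its call. With alternate sequences left out, 30 of the 129 had a result, all on chromosome 6. With the filter of 5 TPM, 101 kept their call, 1 gained a call and the rest were not tested. A turned sign in a change that stayed uncalled was not counted. The 1 counted as reversed was HSCHR6_MHC_DBB:31680530-31689717 with shCTDP1-#2, at -0.1323 after median-of-ratios scaling. The cause was not tested.

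A test against a fold of 1.5 cut the higher calls among haplotype intervals to 22 (shCTDP1-#1), 19 (shCTDP1-#2) and 4 (between hairpins), and the lower calls to 12, 8 and 3. On chromosome 6 it left 1, 0 and 0 higher and 1, 0 and 0 lower. No filter gave 5 higher and 1 lower with shCTDP1-#1 among 22 tested. A filter of 5 TPM left 2 tested, with 0 higher against shScr for either hairpin and 0 lower between the hairpins, by construction. A fit of the compared groups alone gave 1 lower with shCTDP1-#1, and a pseudocount of 0.1 TPM gave 1 higher between the hairpins. Leaving out 1 library gave 1 to 2 lower with shCTDP1-#1, 1 to 2 higher and 0 to 2 lower between the hairpins.

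Log2 ratios of sums against shScr are given for shCTDP1-#1 first. Without the highest interval, chromosome 6 class II was 0.2221 and 0.7218 (a turned direction with shCTDP1-#1, from a ratio of 0.862), haplotype class I 0.5306 and 0.4688, class III -0.0291 (shCTDP1-#1), and class II 0.1798 and 0.3217, the last reversed. Adding the haplotype sequences to chromosome 6 reversed its sum with shCTDP1-#1, to 0.0524. After median-of-ratios scaling the chromosome 6 sum was -0.1281 (shCTDP1-#2), haplotype class I 0.1259 and 0.0154, class III -0.1633 and -0.0971, and class II -0.0871 and -0.5223. After upper-quartile scaling class I was 0.1078 and class III -0.0046 with shCTDP1-#2. Class limits moved down by 100 kb (chosen after seeing the data) gave class I 0.226 and 0.1979, and moved up gave class I 0.1779 and class III -0.0516 with shCTDP1-#1. The class III sum of chromosome 6 without its highest interval gave no ratio, and haplotype counts without the haplotype sequences had nothing to count.

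With the replicate number as a block, as a check of a pairing the labels do not state, 85 of the 89 haplotype intervals called with shCTDP1-#1 were called, 94 against 93 with shCTDP1-#2 and 64 against 65 between the hairpins. On chromosome 6 the replicate block gave 6, 5 and 3 calls against 5, 5 and 3. Among named intervals it brought the change of chr6:30690882-30691654 with shCTDP1-#1 past the threshold (limma adjusted p = 0.0414), and ended the call of HSCHR6_MHC_DBB:31494420-31496802 with shCTDP1-#1 (limma adjusted p = 0.0657) and of HSCHR6_MHC_DBB:32790967-32799736 between the hairpins. TPM keep no depth, so the precision of the many intervals near 0 cannot be stated.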

Other observations

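The 19 intervals of HSCHR6_MHC_QBL within the region summed to 1095.25, 1111.93 and 1078.06 TPM in shScr, 1878.63, 1896.47 and 1844.7 with shCTDP1-#1, and 1756.26, 1780.91 and 1696.06 with shCTDP1-#2. Every hairpin library was above every control, and most of the difference lay in HSCHR6_MHC_QBL:31311768-31315097, described above. Among the 218 of HSCHR6_MHC_DBB the sums were 17533.33, 18432.13 and 18196.83 TPM in shScr, 18239.32, 18030.32 and 17625.57 with shCTDP1-#1, and 16262.45, 16800.63 and 16728.04 with shCTDP1-#2. There the shCTDP1-#1 libraries overlapped the controls and those of shCTDP1-#2 were below all others. The interval HSCHR6_MHC_DBB:33217712-33222212, described above, had a mean of 5761 TPM in shScr and 3422 TPM with shCTDP1-#2. That drop is larger than the drop of the whole HSCHR6_MHC_DBB sum.

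Of the 41 overlapping pairs tested on the haplotype sequences, shCTDP1-#2 against shScr called 13 in the same direction, 5 in opposite directions, 19 in 1 member only and 4 in neither. Between the hairpins the counts were 5, 2, 22 and 12.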
